A study of Mus musculus with 3 samples.

Results

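Transcripts of 7 cytokine genes were followed across the phagocytes of the mouse Peyer's patch: Il6, Tnf, Il10 and the IL-1 family genes Il1a, Il1b, Il1rn and Il18. The members were taken by gene symbol from the deposited matrices, in which each of the 7 symbols names 1 of 27998 genes, and their UMIs (unique transcript molecules) were read by library and by marker-gated cell class. Peyer's patches are lymphoid follicles of the small intestine. CD11c+ cDC1, cDC2, LysoDC (lysozyme-expressing dendritic cells) and macrophages were sorted from female C57BL/6Rj mice and sequenced as single cells by droplet 3′ chemistry. The Control mice are labelled as untreated, and no injection of the carrier alone is described for them. The CpG mice received 125 µg of CpG and the R848 mice 10 µg of R848, both by intraperitoneal injection and both 9 h before collection. Each group was 1 library of 12 pooled mice, so no difference between groups has a replicate, no test was run, and every 95% interval given here covers counting error only.

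CpG DNA is sensed by TLR9 and R848 by TLR7, endosomal receptors that signal through MyD88 to NF-kappaB. IL-6 and TNF are secreted inflammatory cytokines, and IL-10 restrains the cells that produce them. IL-1 alpha and IL-1 beta act through the same receptor, which the IL-1 receptor antagonist encoded by Il1rn blocks. IL-1 beta and IL-18 are made as precursors that are cleaved by caspase-1 in inflammasomes, so a transcript level does not give the level of active cytokine.

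The members lie on 5 chromosomes (GRCm38 coordinates of GENCODE M21). Il1a (chromosome 2, 129299610 to 129309972) and Il1b (chromosome 2, 129364570 to 129371139) are neighbours on the minus strand, 54598 bases apart. Il1rn stands elsewhere on the same chromosome (24336853 to 24351494, plus strand). Il6 is on chromosome 5 (30013114 to 30019981, plus strand), Tnf on chromosome 17 (35199381 to 35202007, minus strand), Il10 on chromosome 1 (131019845 to 131024974, plus strand) and Il18 on chromosome 9 (50554827 to 50581840, plus strand).

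The 250 bases before the annotated start are printed for Il6, Tnf and Il1b, because these genes took 3 different patterns in the same mature dendritic cells. They are RefSeq sequences of GRCm38.p6, which held 6 of the 7 members (Il10 was not matched). They are read 5′ to 3′ toward the gene, and capitals mark matches on either strand to 4 motifs: an NF-kappaB-like motif (3 G, any 2 bases, 2 T, any base, 2 C), an AP-1 motif (TGANTCA), a C/EBP motif (TTGNGCAA) and a TATA motif (TATAAA). No match overlapped another in these windows. The windows are chr5:30012864-30013113 on the plus strand for Il6, chr17:35202008-35202257 on the minus strand for Tnf and chr2:129371140-129371389 on the minus strand for Il1b.
Il6: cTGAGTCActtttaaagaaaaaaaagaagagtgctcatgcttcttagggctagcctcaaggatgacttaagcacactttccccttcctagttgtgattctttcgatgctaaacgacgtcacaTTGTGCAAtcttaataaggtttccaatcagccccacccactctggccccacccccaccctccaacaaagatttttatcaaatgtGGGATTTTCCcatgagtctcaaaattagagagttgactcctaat
Tnf: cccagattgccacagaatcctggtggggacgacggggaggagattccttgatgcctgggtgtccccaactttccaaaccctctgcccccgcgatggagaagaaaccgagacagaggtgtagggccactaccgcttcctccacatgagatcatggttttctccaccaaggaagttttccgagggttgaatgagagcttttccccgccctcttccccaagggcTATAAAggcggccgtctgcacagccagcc
Il1b: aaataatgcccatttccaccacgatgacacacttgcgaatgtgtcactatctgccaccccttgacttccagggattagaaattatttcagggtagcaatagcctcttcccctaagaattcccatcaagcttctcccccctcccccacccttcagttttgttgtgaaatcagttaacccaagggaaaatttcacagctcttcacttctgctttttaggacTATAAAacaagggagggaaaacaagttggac
The Il6 window held 1 match each to the NF-kappaB-like motif (bases -44 to -35 from the start), the C/EBP motif (-128 to -121) and the AP-1 motif (-249 to -243). The Tnf and Il1b windows each held 1 TATA match and no match to the other 3 motifs. Over the 32851 windows of this length in the table, 4.11% held the NF-kappaB-like motif, 6.75% the AP-1 motif, 2.61% the C/EBP motif and 12.4% the TATA motif. A match is a description of the letters and not a binding site.

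The libraries held 43537067 to 46556726 UMIs over 5049 to 5344 cell barcodes, and 4821 to 5079 cells were kept. Between 33 and 42 barcodes occurred in both of any 2 libraries. Cells were gated on marker UMIs per 10000 UMIs of the cell. Mature DC-like cells carry at least 30 from 12 genes such as Ccr7 and Fscn1. Lysozyme-high cells carry at least 30 from C1qa, C1qb and C1qc, and are called macrophage-like with at least 1 Cd4 UMI and LysoDC-like with none. Resting cDC2-like cells numbered 1920, 480 and 412 in Control, CpG and R848, mature DC-like cells 497, 2933 and 2294, LysoDC-like cells 1442, 837 and 1143, and macrophage-like cells 536, 386 and 587. Resting cDC1-like cells numbered 418, 18 and 4 and were not compared between libraries. A C1q-positive group with mature markers held 48, 42 and 310 cells and was also not compared. Its doublet-like cells, 14, 77 and 86, had been removed. Its 10 leading genes in R848, with Il12b first, held 0 of its own markers, so it is called only by its gate. The median mature marker sum of mature DC-like cells was 87.0 per 10000 in Control, 207 with CpG and 183 with R848. Each level is a CPM value: UMIs of the gene for every 1000000 UMIs of all genes, both summed over the class. Other cell types were then read by marker lists. Cells past a limit for B-lineage, plasmacytoid, T cell or neutrophil genes, Siglech among them, had already been left out of the compared classes. Low values of those lists are thus partly set by the gates. Mast cell markers were at 0 in the compared classes, and 7 neutrophil markers summed to 2.07 to 61.8 CPM with Ly6g at 0. The 7 monocyte markers, of which cDC2 express some, summed to 3216 CPM in Control, 5552 with CpG and 5598 with R848 in resting cDC2-like cells, and to 1523, 694 and 1222 CPM in mature DC-like cells. The 8 plasmacytoid markers, which include the interferon-induced Bst2, summed to 326 to 1737 CPM over the compared Control classes, 698 to 3515 CPM with CpG and 845 to 3658 CPM with R848, highest each time in macrophage-like cells. Siglech, a defining plasmacytoid gene, was at 9.23, 6.04 and 5.47 CPM in macrophage-like cells of Control, CpG and R848. It was also found in LysoDC-like and resting cDC2-like cells of each library. In mature DC-like cells Siglech was at 0.72 CPM in Control and at 0 in both treated libraries. In these treated cells 6 of the 8 plasmacytoid markers had UMIs. The 6 stromal or endothelial markers summed to 17.7 to 41.5, 62.4 to 127 and 29.7 to 107 CPM in the same order, with Col3a1 at 0. T or NK cell markers reached 356 CPM, epithelial markers 337 CPM and B-lineage markers 217 CPM at most. The part of these lists in the results was not tested. In a class sum, fewer expressing cells and less RNA per cell cannot be told apart, so shares of cells are added.

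**Figure D1:**
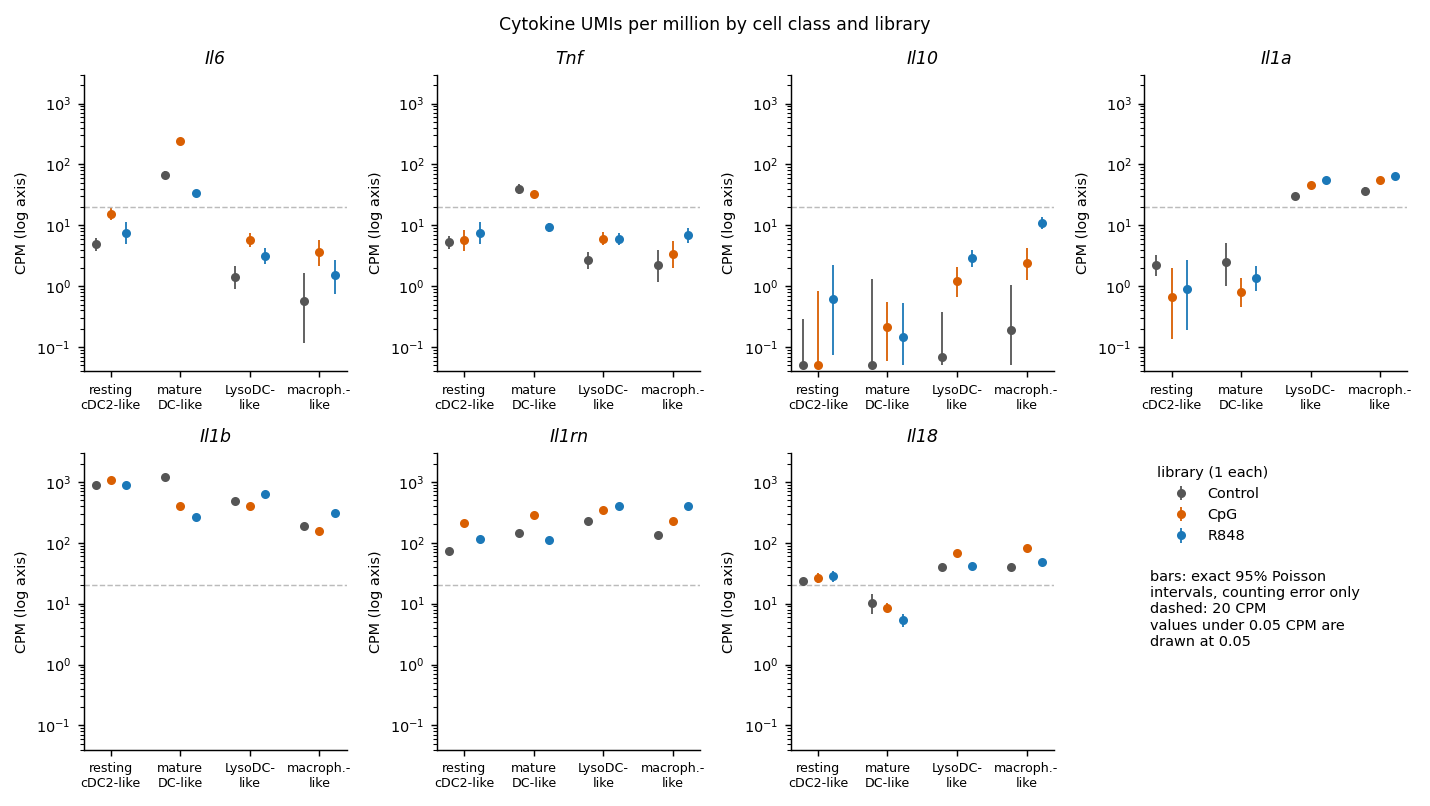
CPM of each member (log axis) in 4 cell classes of the Control, CpG and R848 libraries, with exact 95% Poisson intervals. Il6 is highest in mature DC-like cells, Il1a and Il18 in LysoDC-like and macrophage-like cells, and Il10 stays under the dashed 20 CPM line in every class.

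Of the 4 classes compared, mature DC-like cells had the highest Il6 in each library, and the level was highest with CpG. In these cells it stood at 67.6 CPM in Control (interval 58.2 to 78), 245 CPM with CpG (238 to 253) and 33.7 CPM with R848 (30.7 to 36.9). CpG was 3.63-fold above Control (3.14 to 4.23), while R848 was 2.01-fold below it (1.69 to 2.39) and 7.29-fold below CpG (6.63 to 8.04). The whole CpG library held 4724 Il6 UMIs, against 286 in Control and 725 with R848. Of the CpG UMIs 95.5% lay in mature DC-like cells, against 65.4% in Control and 63.7% with R848. These cells were 60.8% of the kept cells with CpG, 9.79% in Control and 46.8% with R848. At least 1 Il6 UMI was found in 14.5% of Control, 45.2% of CpG and 11.4% of R848 mature cells. Cells with at least 3000 UMIs were then thinned to 3000, here and wherever thinning is named, and cells with fewer were left out. The shares were 11.2% of 439 Control, 34.1% of 2728 CpG and 6.86% of 2084 R848 mature cells. B-lineage cells held 0, 2 and 2 Il6 UMIs.

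In the 3 other classes compared Il6 was scarce. Resting cDC2-like cells held 4.91 CPM in Control, 15.6 with CpG and 7.61 with R848. In the same order, LysoDC-like cells held 1.43, 5.81 and 3.16 CPM, and macrophage-like cells 0.57, 3.62 and 1.5 CPM. Free RNA was estimated to give 2.90 CPM of Il6 in the CpG library, so the CpG macrophage-like value, with an interval of 2.15 to 5.73, was not distinguishable from it. In the R848 library the mature-marker C1q-positive group held 51.2 CPM (43.8 to 59.5), which is above the R848 mature DC-like cells. Its 42 CpG cells held 72.1 CPM (46.2 to 107).

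Tnf was spread over more classes and at lower levels. In mature DC-like cells it stood at 39.4 CPM in Control (32.3 to 47.5), 32.3 CPM with CpG (29.8 to 35) and 9.32 CPM with R848 (7.78 to 11.1). The Control and CpG intervals overlapped in the whole class, and R848 was 4.23-fold below Control (3.24 to 5.50). In cells with a mature marker sum of at least 120, CpG was 1.71-fold below Control (1.27 to 2.26). Under 120 it was 1.14-fold below, with an interval that held 1 (0.80 to 1.63). Few cells carried the transcript: 8.25%, 12.4% and 4.01% of mature cells had a Tnf UMI, and 6.15%, 7.66% and 2.54% after thinning. Without the 1% of cells with the most Tnf UMIs the mature class stood at 18.7 CPM in Control and 5.09 CPM with R848, a lower value in R848 still but under the 20 CPM asked for a call.

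In the C1q-positive classes Tnf was not lower than in Control. It was 2.72 CPM in Control LysoDC-like cells, 6.07 with CpG and 5.97 with R848, and in macrophage-like cells 2.26, 3.42 and 6.97 CPM. The ratios to Control had intervals above 1 except in CpG macrophage-like cells (1.51, 0.68 to 3.47), and all these values lie under 20 CPM. The highest Tnf of the R848 library was in the mature-marker C1q-positive group at 46.5 CPM (39.4 to 54.3), which held 34.7% of that library's Tnf UMIs in 6.33% of its cells.

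Il1b was the most abundant member of each whole library and was present in every class, but Il1rn stood above it in macrophage-like cells of both treated libraries. Il1b was highest in mature DC-like cells of the Control library at 1216 CPM (1175 to 1257). It was lower there with CpG at 405 CPM (396 to 414) and with R848 at 265 CPM (256 to 274). These are 3.0-fold (2.88 to 3.13) and 4.59-fold (4.38 to 4.81) below Control. Resting cDC2-like cells, the largest Control class, did not show that difference: they stood at 890, 1061 and 895 CPM. LysoDC-like cells stood at 488 CPM in Control, 409 with CpG and 637 with R848, and macrophage-like cells at 187, 155 and 304 CPM. Both C1q-positive classes were thus lowest with CpG and highest with R848. Control resting cDC1-like cells stood at 108 CPM (97.3 to 120). Free RNA was estimated at 24.3, 11.2 and 11.9 CPM, and B-lineage cells held 53.6, 17.4 and 36.9 CPM. An Il1b UMI was found in 15.5%, 2.33% and 10.0% of thinned B-lineage cells, against 19.0% of thinned Control cDC1-like cells. In the compared classes the lowest such share was 25.2%, in CpG macrophage-like cells. Median depths were 5722.5, 7247 and 6924 UMIs in B-lineage cells, 7684 in the cDC1-like and 12535 in the macrophage-like cells before thinning.

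Within mature DC-like cells of Control and CpG, Il1b was lower where the mature marker sum was higher. In Control it was 1629 CPM in cells with a sum of 30 to 60, 1585 CPM at 60 to 120 and 501 CPM at 120 to 240. CpG cells gave 1543, 820 and 344 CPM over the same ranges and 164 CPM above 240. R848 cells gave 586, 345 and 229 CPM, but 272 CPM above 240, so the order did not hold at the top of the scale there. The lowest CpG range thus overlapped Control in its interval (1463 to 1625 against 1550.5 to 1711), while R848 lay below Control in each of these 3 ranges. The Control library had 19 cells above 240, too few for a level to be compared. Restricted to cells with a sum of at least 120, 176 in Control, 2522 with CpG and 1937 with R848, Il1b stood at 457, 281 and 236 CPM. CpG was then 1.63-fold and R848 1.94-fold below Control, and neither passed the 2-fold limit. Of all genes measured in that subset, 7.56% passed the limit upward and 4.26% downward with CpG, and 4.58% higher and 4.07% lower with R848.

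Il6 went the other way along the same scale. CpG cells held 125 CPM at 30 to 60, then 212 and 252 CPM, and 266 CPM above 240. Control cells gave 51.8, 71.7 and 76.4 CPM over the 3 ranges up to 240, with overlapping intervals, and R848 cells 18.0, 21.4, 28.1 and 78.4 CPM. CpG lay above Control and R848 in every range with at least 20 cells. Among cells with a sum of at least 120, CpG was 3.20-fold above Control (2.55 to 4.06) and R848 2.21-fold below it (1.71 to 2.83). Below 120 R848 was 2.96-fold under Control (2.10 to 4.23), so it lay past 2-fold on either side of that limit, whereas the pooled class did not pass after 5 CPM was added. Tnf in the same cells stood at 57.2, 33.5 and 9.69 CPM, and Il1rn at 94.2, 263 and 105 CPM.

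**Figure D2:**
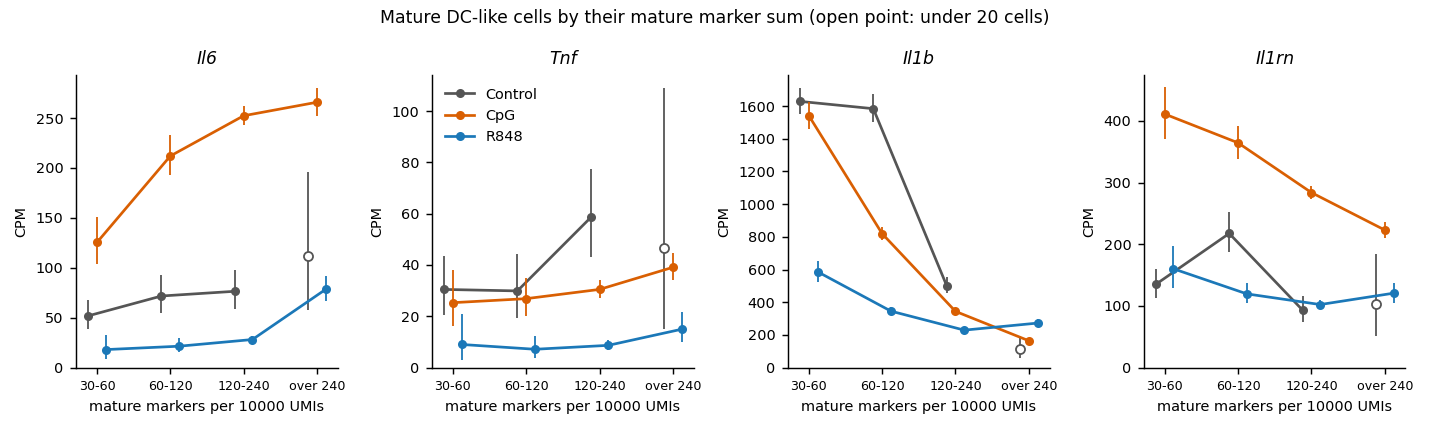
CPM of Il6, Tnf, Il1b and Il1rn (linear axes) in mature DC-like cells split by their mature marker UMIs per 10000, with exact 95% Poisson intervals and an open point for the 19 Control cells above 240. Il1b is 1629 CPM in the lowest Control range and 501 CPM at 120 to 240, with CpG at 1543 and 344 CPM, while Il6 in CpG cells goes from 125 to 266 CPM.

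Lineage markers split the mature class further. Mature cells were set apart by UMIs of cDC2 genes such as Sirpa with no UMI of cDC1 genes such as Xcr1, or the reverse; the remaining cells had neither or both. Il1b in mature cells with cDC1 markers was 1077 CPM in 46 Control cells (966 to 1198), 181 CPM in 141 CpG cells (155 to 210) and 57.4 CPM in 229 R848 cells (46.6 to 70.0). In mature cells with cDC2 markers it was 1383 CPM in 142 Control, 689 in 607 CpG and 269 in 430 R848 cells. Il1b was lower than in Control in both lineages and with both agonists. The lineage subsets were not matched for the mature marker sum. Its median in Control, CpG and R848 was 114, 213 and 177 with cDC1 markers, and 70.9, 177 and 169 with cDC2 markers. The part of this difference in the Il1b values was not tested. Il6 with CpG was 250 CPM in cells with cDC2 markers and 119 CPM in cells with cDC1 markers, and Il1rn 380 and 129 CPM. In the R848 library Il6 stood at 21.0 and 18.3 CPM in these 2 subsets, with overlapping intervals. The R848 cells with neither or both marker sets, 71.3% of the class, held 40.3 CPM (36.3 to 44.6). Such cells were 62.2% of the class in Control and 74.5% with CpG, with Il6 at 52.1 and 253 CPM.

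Clusters made without the members showed how unevenly the transcripts lay. Clusters are named by their summed markers, so some of their cells fail the gate on single cells. Among 8 CpG clusters with mature markers Il6 ran from 40.8 CPM in 386 cells to 714 CPM in 88 cells (646 to 788). Those 88 cells were led by Il12b, the shared subunit of IL-12 and IL-23, at 5050 CPM, and also held the highest Tnf of the mature clusters (162 CPM), with Il1b at 1275 CPM. The highest Il1b of the CpG mature clusters, 1428 CPM, was in another cluster of 222 cells, which also held their highest Il1rn (640 CPM). A cluster of 805 CpG cells led by Ehf, Tnfrsf9 and the Notch ligand Dll4 held 494 CPM of Il6 and 346 CPM of Il1b. The Il6 of the CpG mature class does not rest on the Il12b-led cells: it was 231 CPM without them. In Control, a cluster of 618 cells led by Ccr7 had 363 cells that passed the mature gate, and these held 1682 CPM of Il1b (1624 to 1742). A second Control cluster of 162 cells, led by Glipr2, had 76 such cells, which held 33.4 CPM (18.7 to 55.0). The 4 R848 clusters with mature markers ranged from 6.05 to 69.0 CPM of Il6.

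**Figure D3:**
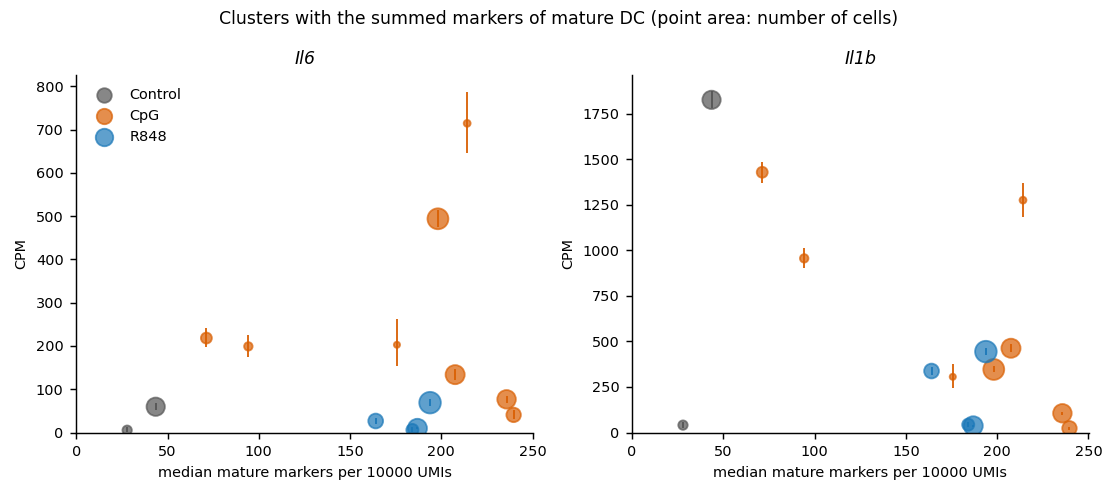
Il6 (left) and Il1b (right) in CPM against the median mature marker sum per 10000 UMIs, for clusters of at least 50 cells named mature DC-like by their summed markers; point area gives the number of cells and bars exact 95% Poisson intervals. The CpG clusters spread from 40.8 to 714 CPM of Il6. The 88-cell CpG cluster has 1275 CPM of Il1b at a high marker sum, and a CpG cluster of 222 cells has the highest CpG value, 1428 CPM.

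An Il12b UMI was found more often in mature cells with Il6 than in those without. After thinning, 16.5% of the 930 CpG mature cells with Il6 had an Il12b UMI (14.1 to 19.0), against 3.17% of the 1798 without Il6 (2.41 to 4.09). The shares were 34.7% against 7.69% in Control and 19.6% against 2.94% with R848. For Tnf they were 24.5% against 3.85% in Control, 11.8% against 5.51% with CpG and 7.69% against 2.16% with R848. Among CpG cells, Il1rn was found in 57.6% against 33.1%, and Il1b in 40.6% against 30.9%. Cells of 1 library are not replicates, so these shares describe the libraries.

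Il1a, the membrane-associated IL-1 agonist, was highest in the C1q-positive classes. Its level in LysoDC-like cells was 30.8 CPM in Control (28.1 to 33.8), 46.0 with CpG (42.1 to 50.1) and 55.0 with R848 (51.3 to 59.0). Macrophage-like cells held 36.9, 55.8 and 64.3 CPM. Resting cDC2-like and mature DC-like cells held between 0.67 and 2.53 CPM, against free RNA estimates of 0.51 to 0.79 CPM. Within the Control cDC2-like cells a Cd209a-led cluster of 200 cells held 11.6 CPM (6.61 to 18.8). Both C1q-positive classes were above Control with each agonist, by 1.49-fold to 1.78-fold, under the 2-fold limit. Il1b, its chromosomal neighbour, was lower than Control with CpG in the same 2 classes. With R848 it was above Control, 1.31-fold in LysoDC-like and 1.62-fold in macrophage-like cells.

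Il18 had its highest levels in the same C1q-positive classes, with the maximum under CpG. In LysoDC-like cells it was 39.5 CPM in Control, 68.0 for CpG and 41.9 for R848. In macrophage-like cells the same libraries gave 39.4, 81.3 and 47.6 CPM. The CpG macrophage-like value was 2.06-fold above Control (1.74 to 2.45), which is 0.96 on the log2 scale with 5 CPM added and so just under the limit, and 1.03 with 1 CPM added. Resting cDC2-like cells held 23.4, 26.1 and 28.6 CPM with overlapping intervals, and mature DC-like cells 10.1, 8.65 and 5.32 CPM.

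Il1rn, the antagonist, was above Control with both agonists in every class compared except mature DC-like cells under R848. Resting cDC2-like cells stood at 71.9 CPM in Control (67.3 to 76.7), 215 with CpG (202 to 229) and 116 with R848 (105 to 129). LysoDC-like cells held 231, 345 and 394 CPM, and macrophage-like cells 134, 228 and 396 CPM. Mature DC-like cells held 146 CPM in Control, 282 for CpG and 109 for R848. The ratios past the 2-fold limit were CpG in resting cDC2-like cells, 2.99-fold (2.73 to 3.28), and R848 in macrophage-like cells, 2.96-fold (2.72 to 3.21). In mature DC-like cells CpG was 1.93-fold above Control (1.74 to 2.14) and R848 1.34-fold below it (1.19 to 1.49). Among cells with a mature marker sum of at least 120, CpG was 2.79-fold above Control, and R848 turned to 1.12-fold above it with an interval that held 1 (0.90 to 1.40). The cDC2-like class was made up of different clusters in each library. Among Control clusters of at least 50 cells Il1rn ran from 11.5 CPM in a Cdh17-led one to 142 CPM in one led by Mmp12, Hpgd and Plet1, beside 9.89 CPM in a Cdh17-led and 213 CPM in a Plet1-led CpG cluster. Cd209a, a marker of another Control cluster, was 133 CPM in the class in Control, 1.12 for CpG and 32.6 for R848. Il1b in the same clusters ran from 155 to 1106 CPM in Control and was 80.8 and 1175 CPM with CpG. The part of this make-up in the Il1rn and Il1b values was not tested.

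The ratio of Il1rn to Il1b transcripts was higher with CpG and with R848 than in Control in all 4 classes. Il1rn UMIs per Il1b UMI in resting cDC2-like cells were 0.0808 in Control, 0.203 for CpG and 0.130 for R848. Mature DC-like cells gave 0.12, 0.696 and 0.413, and LysoDC-like cells 0.472, 0.844 and 0.619. Macrophage-like cells passed 1 in the treated libraries, at 0.715 in Control, 1.47 with CpG (1.34 to 1.62) and 1.30 with R848 (1.23 to 1.38). In each class CpG was highest and Control lowest, with no overlap of the intervals except between CpG and R848 macrophage-like cells. Il1a, the other agonist, is left out of the ratio, and no ratio with Il1a added was computed. Macrophage-like cells held 196, 277 and 470 Il1a UMIs in Control, CpG and R848, beside 994, 768 and 2220 of Il1b. The ratio of Il1rn to Il1b compares libraries: how well the 2 transcripts are captured was not measured, so it gives no protein ratio.

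**Figure D4:**
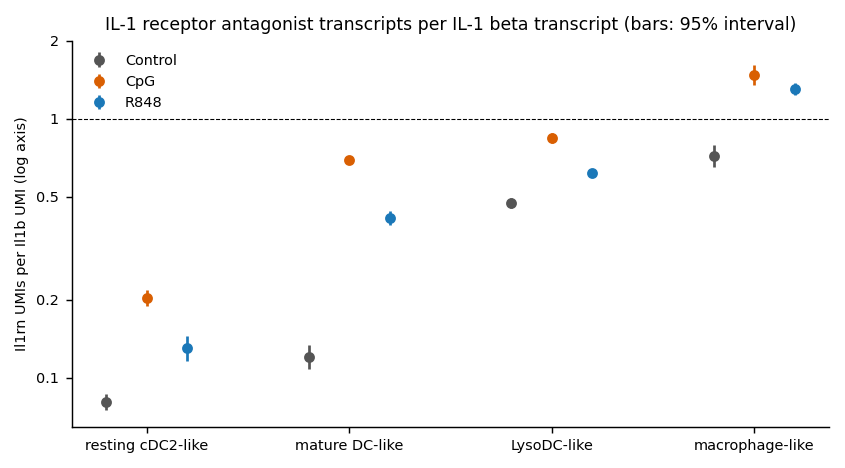
Il1rn UMIs per Il1b UMI (log axis) in 4 cell classes of the 3 libraries, with exact 95% conditional binomial intervals. Each class runs from Control (0.0808 to 0.715) through R848 (0.130 to 1.30) to CpG (0.203 to 1.47).

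Il10 was nearly absent at rest and appeared in C1q-positive cells of the treated libraries. The whole Control library held 2 Il10 UMIs, the CpG library 36 and the R848 library 145. Macrophage-like cells held 1 UMI in Control (0.19 CPM), 12 with CpG (2.42 CPM, 1.25 to 4.22) and 80 with R848 (10.9 CPM, 8.67 to 13.6). LysoDC-like cells held 1, 14 and 42 UMIs, or 0.07, 1.23 and 2.88 CPM. With a single Control UMI the R848 macrophage-like ratio was 58.0 with an interval of 10.1 to 2321, and R848 was 4.53-fold above CpG (2.45 to 9.13). The 12 CpG macrophage-like UMIs lay in 5 cells, with 7 of them in 1 cell, and the 80 R848 UMIs in 46 cells. In LysoDC-like cells the 14 CpG UMIs lay in 6 cells. The intervals count UMIs and do not cover this spread between cells. Resting cDC2-like cells held 0, 0 and 2 UMIs and mature DC-like cells 0, 4 and 2. The 0 in Control mature cells allows up to 1.08 CPM, the level of 3 counts. Among R848 macrophage-like cells 7.84% had an Il10 UMI, and 2.41% after thinning. Among R848 clusters, named by their summed markers, the Cd4-led one of 715 cells held 10.8 CPM, and its 487 cells that passed the macrophage-like gate held 11.8 CPM. A Clec4a3-led cluster of 97 cells, 79 of them LysoDC-like by gate, held 16.4 CPM, while the largest LysoDC-like cluster of 817 cells held 0.55 CPM.

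Set against all genes, a member differed from Control at least 2-fold in 3 of the 4 classes. A gene was taken as measured where the higher of both libraries reached 20 CPM, and as higher or lower with a log2 ratio of at least 1 in size after 5 CPM was added to both. With CpG, 1 of 3 measured members was higher in resting cDC2-like cells (Il1rn), where 3% of all measured genes were higher and 0.968% lower. In mature DC-like cells 1 of 4 was higher (Il6) and 1 lower (Il1b), against 9.3% and 7.08% of all genes. None of 4 was called in LysoDC-like cells (background 2.96% higher, 0.687% lower) or in macrophage-like cells (3.8% and 0.681%). With R848, 2 of 4 were lower in mature DC-like cells (Tnf and Il1b) and none higher, against 8.22% and 6.88% of all genes. In macrophage-like cells 1 of 4 was higher (Il1rn) and none lower, against 5.56% and 2.13%. None was called in resting cDC2-like cells (1.86% and 0.797%) or LysoDC-like cells (3.89% and 1.63%). The median log2 ratio of the measured members in mature DC-like cells was 0.34 with CpG and -1.27 with R848, beside 0.08 and -0.05 over all measured genes. In LysoDC-like and macrophage-like cells the members' medians were 0.54 and 0.64 with CpG and 0.56 and 0.70 with R848, beside 0.03, 0.06, 0.10 and 0.14 over all genes. Directly between the agonists, 3 of 4 members were lower with R848 than with CpG in mature DC-like cells (Il6, Tnf and Il1rn), where 3.57% of all genes were lower and 1.15% higher. None was called in resting cDC2-like cells (0.16% higher and 0.86% lower over all genes), LysoDC-like cells (1.34% and 0.503%) or macrophage-like cells (1.9% and 0.648%).

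**Figure D5:**
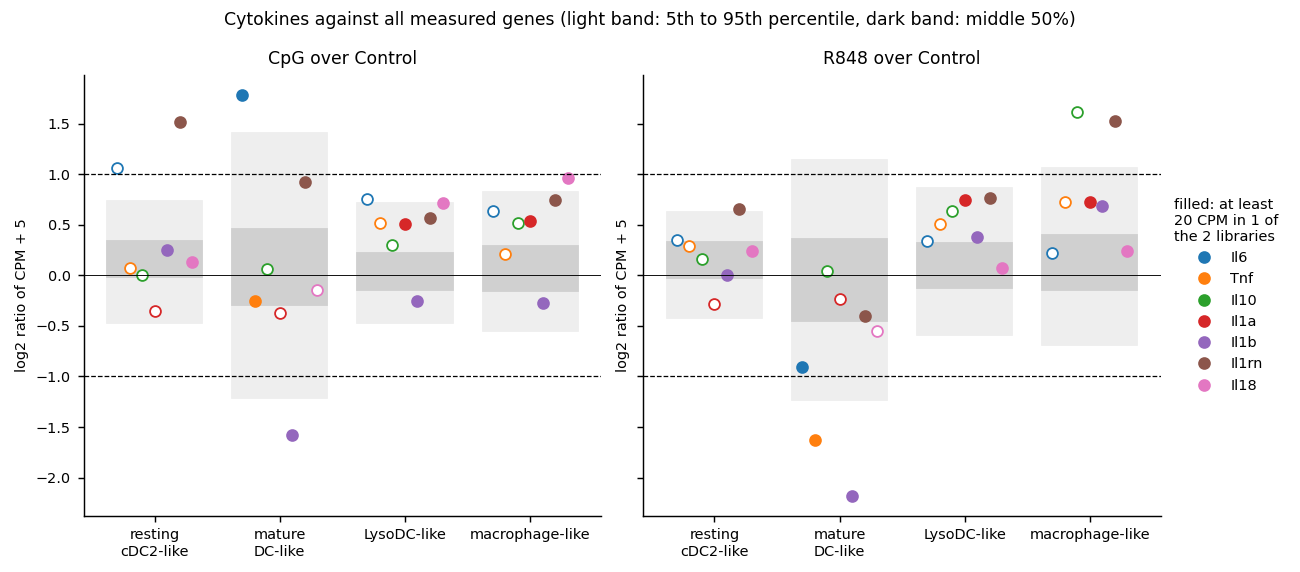
Log2 ratio of CPM + 5 against Control for the 7 members in 4 cell classes (filled points: 20 CPM reached in the higher library), over bands that hold the 5th to 95th percentile and the middle 50% of all measured genes; dashed lines mark 2-fold. Il6 with CpG (1.79) and Il1b (-1.57 and -2.18) and Tnf (-1.63) with the agonists lie past the dashed lines in mature DC-like cells, and Il1rn in cDC2-like cells with CpG (1.52) and macrophage-like cells with R848 (1.53).

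The receptors and regulators of IL-1 and IL-18 were followed in mature DC-like cells, the class with the highest Il1b in Control. Of 16 genes 6 were measured, of which 1 was higher (Il18bp) and 1 lower (Il1r2) with each agonist. The list's median log2 ratio was 0.24 with CpG and 0.08 with R848, beside 0.08 and -0.05 over all measured genes. Il1r2 encodes the decoy receptor that binds IL-1 without signalling. It stood at 205 CPM in Control mature DC-like cells, 7.12 with CpG and 12.2 with R848, a log2 ratio of -4.12 and -3.62. Here and in the next lists, mature DC-like values are those of the whole class, not split by the mature marker sum. The median of that sum was 87.0 in Control, 207 with CpG and 183 with R848, and its part in these ratios was not tested. Resting cDC2-like cells kept 232, 204 and 191 CPM of Il1r2. LysoDC-like cells held 131, 273 and 134 CPM, where CpG was called higher, and macrophage-like cells 27.7, 69.7 and 52.2 CPM, where CpG was called higher too. Il18bp, which encodes the secreted inhibitor of IL-18, stood at 12.7, 53.9 and 53.5 CPM in mature cells, and at 502, 668 and 715 CPM in macrophage-like cells. The adaptor gene Traf6 had the next highest log2 ratio, 0.58 with CpG and 0.65 with R848. The kinase gene Irak4 (-0.60 with CpG) and the adaptor gene Myd88 (-0.42 with R848) had the next lowest. None of the 6 other IL-1 family ligands in the matrix reached 20 CPM in any class compared.

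Of 20 inflammasome genes 7 were measured in mature DC-like cells, with a median log2 ratio of 0.84 for CpG and -0.23 for R848, beside 0.08 and -0.05 over all genes. For these and the next lists, the shares of all measured genes called in this class were 9.3% higher and 7.08% lower with CpG, and 6.88% and 8.22% with R848. With CpG 2 were higher, the adaptor Pycard at 44.5 CPM in Control and 120 with CpG, and the inflammatory caspase Casp4 at 34.0 and 88.2 CPM. The sensor gene Mefv was lower with both agonists, at 23.9 CPM in Control, 9.19 with CpG and 6.48 with R848. With R848 none was higher: Pycard stood at 28.9 CPM, Casp4 at 42.8 CPM and the pore-forming gene Gsdmd at 130 CPM against 72.3 in Control. Aim2, a DNA sensor, stood at 22.4 CPM in Control and 20.2 with CpG. Casp1, which encodes the enzyme that cleaves pro-IL-1 beta, stood at 52.4, 98.7 and 61.5 CPM. Nlrp3 was measured in none of these cells, at 3.98, 0.16 and 0.66 CPM.

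For IL-6 signalling 4 of 6 genes were measured in mature DC-like cells, with a median log2 ratio of 0.19 for CpG and -0.07 for R848. The transcription factor gene Stat3 was higher with CpG, at 137 CPM in Control and 382, and stood at 277 CPM with R848 (log2 ratio 0.98). The receptor chain gene Il6st was lower with CpG, at 32.5 and 13.6 CPM, and stood at 31.1 CPM with R848. Socs3, a feedback inhibitor, was called lower with R848, at 77.7 CPM in Control, 70.2 with CpG and 19.7 with R848. Jak1 stood at 95.1, 139 and 88.9 CPM. Il6ra, the ligand-binding chain, stood at 12.7, 1.47 and 2.26 CPM in mature cells and at 63.0, 47.6 and 58.1 CPM in resting cDC2-like cells.

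Of 12 genes of TNF receptors, shedding and signalling, 9 were measured in mature DC-like cells and none was called, with medians of 0.37 for CpG and 0.26 for R848. Birc2 and Traf2 had the highest ratios with CpG (0.80 and 0.81), Birc2 and Cflar with R848 (0.89 and 0.63). Adam17, the protease that sheds TNF, stood at 31.4, 21.8 and 21.7 CPM. Tnfrsf1b stood at 87.1 CPM in Control and 66.2 with CpG, and Tnfaip3, a feedback inhibitor, at 44.8 CPM in Control and 33.3 with R848. In macrophage-like cells Tnfrsf1b was called higher with R848, at 36.6 and 82.6 CPM. Of 12 genes that control cytokine mRNA, 9 were measured in mature cells, with medians of 0.06 for CpG and -0.21 for R848. The phosphatase gene Dusp1 was higher with CpG (160 and 438 CPM), and Nfkbiz, a nuclear cofactor of NF-kappaB at Il6, was lower with R848 (98.7 and 44.3 CPM). With CpG Nfkbiz stood at 140 CPM, and Zfp36 and Zfp36l1, which encode mRNA decay proteins, stood at 279 and 198 CPM against 399 and 266 in Control. With R848 Zfp36l1 stood at 501 CPM, Dusp1 at 244 CPM and the endonuclease gene Zc3h12a at 16.3 CPM against 30.4.

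The IL-10 list was read in macrophage-like cells, the class with the highest Il10, where 7 of 10 genes were measured. Their median log2 ratio was 0.13 with CpG and 0.22 with R848, beside 0.06 and 0.14 over all genes, of which 3.8% and 5.56% were called higher and 0.681% and 2.13% lower. Maf, a transcription factor that acts on Il10, was higher with R848, at 18.5 CPM in Control and 69.9, and stood at 22.3 CPM with CpG. It was also called higher with R848 in LysoDC-like cells, at 9.87 and 45.2 CPM, and held 0.24, 3.8 and 0 CPM in resting cDC2-like cells of Control, CpG and R848. The receptor gene Il10ra stood at 54.5, 46.7 and 52.0 CPM and Socs3 at 144, 96.8 and 139 CPM. Jak1 (0.43) and Stat3 (0.27) had the highest log2 ratios with CpG, and Stat3 the next highest after Maf with R848 (0.69). No gene of the list was called with CpG there.

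Genes whose levels followed each member most closely were ranked by Pearson correlation of log2(CPM + 5) over 14 sums of at least 50 cells, among 3625 genes. The sums share libraries, so the coefficients are descriptions. Il6 was followed by Dll4 (0.98), Dnajb6 (0.97) and Tnip3 (0.96), and Tnf by Dusp2 (0.91), Ccl17 (0.90) and Fchsd2 (0.86). Il10 was followed by Fcgr4 (0.91), Ccl8 (0.89) and M6pr (0.87). Its highest levels in these sums were 10.9, 5.36 and 2.88 CPM, all with R848, so the Il10 coefficients rest on few UMIs. Il1a had Tmem26 and Mpp1 (both 0.99), and Il18 had Lgals9 (0.98), Pgd (0.97) and Pgm2 (0.97). Il1b was followed by Ifitm2 (0.92), Fam96a (0.89) and Ifitm1 (0.89), and Il1rn by Ptpn1 (0.96), Tmem106a (0.94) and Msn (0.93). Among the members themselves the closest pairs were Il1a with Il18 (0.83) and Il6 with Tnf (0.83), and the coefficient of Il1b with Il1a was -0.29.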

How the data were processed

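The values deposited by the authors are raw UMI counts, 1 per gene and barcode, made with Cell Ranger version 2.0.0 and mm10 per the submitters' processing notes. Sources used here do not give the annotation release. Each library was 1 matrix, with 43537067 (Control), 43767864 (CpG) and 46556726 (R848) UMIs. Cells with at least 500 genes and at most 10% mitochondrial UMIs were kept, which left 5304, 5023 and 5107, and 225, 202 and 209 doublet-like cells with the highest scores against simulated doublets were removed. Gate limits were set after the marker distributions were seen: 30 for the C1q sum and the mature markers, 15 for cDC1, B-lineage and plasmacytoid markers, 10 for T cell and neutrophil markers and 5 for cDC2 markers, per 10000 UMIs. Between 213 and 587 cells a library lay within 1.5 times of the mature limit, and 134 to 218 lysozyme-high cells had exactly 1 Cd4 UMI, so Cd4 dropout moves cells between the macrophage-like and LysoDC-like classes.

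Free RNA was estimated from C1q UMIs in mature DC-like cells at 4.10%, 2.50% and 2.54% of UMIs. UMIs were summed by class and scaled to CPM. Levels carry exact Poisson, ratios exact conditional binomial and shares exact Clopper-Pearson 95% intervals. Each library was clustered with Leiden (leidenalg 0.10.2, scikit-learn 1.9.0) on 2000 variable genes without the members. The ratio and interval code was tested on simulated data.

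The members, the gene lists, the markers and the rule for named genes were chosen with earlier results of these data known. The rule names all members, from each of 7 pathway lists the measured genes at both ends of the log2 ratios (2 at each end, by treatment, in the class where the members are highest), and the 3 genes most correlated with each member, of which 1 is not reported here. Other pathway genes, clusters and subsets were named after their values were seen. Of the list genes 6 were not analysed here. The effect of 14 alternatives, and of 3 chosen after seeing the data, is described in the closing section.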

Additional observations from a re-analysis of the deposited data

Results flagged for a closer look

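Members were flagged that, under the same treatment, were higher than Control in 1 class and lower in another. Both intervals had to leave out 1. Both classes had to reach 20 CPM in the higher library, and at least 1 had to pass the 2-fold limit. By this rule 2 members were flagged. Pairs that failed these limits were left out, among them Tnf with R848, 2.19-fold above Control in LysoDC-like and 4.23-fold below it in mature DC-like cells. Il6 with R848 was 2.21-fold above and 2.01-fold below Control in the same classes. All these differences between classes were not tested, since each group is 1 library. With CpG, Il1b was 1.19-fold above Control in resting cDC2-like cells and 3.0-fold below it in mature DC-like cells. With R848, Il1b was 1.31-fold above Control in LysoDC-like cells and 1.62-fold above it in macrophage-like cells, beside 4.59-fold below it in mature DC-like cells. With R848, Il1rn was 2.96-fold above Control in macrophage-like cells and 1.34-fold below it in mature DC-like cells. The median mature marker sum of the mature class also differed between libraries, and among cells with a sum of at least 120 the Il1b values were 457, 281 and 236 CPM and the Il1rn values 94.2, 263 and 105 CPM in Control, CpG and R848.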

How the results depend on the processing

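Of 826 log2 ratios recomputed under 17 alternatives, 700 stayed within the counting interval of the reported value, 126 moved past it, and no called ratio changed sign. Over the 4 classes, 2 ratios with CpG and 1 with R848 were called higher, and 1 with CpG and 2 with R848 lower. Il6 (mature, CpG) and Il1rn (cDC2-like with CpG, macrophage-like with R848) kept their calls under the 17 and 14 alternatives run for them. Il1b with each agonist lost its call where mature cells had a marker sum of at least 120, chosen after seeing the data (log2 ratios -0.69 and -0.94), which left 0 lower with CpG. Tnf with R848 lost its call with a 50 CPM minimum and without the 1% of cells with most UMIs, each leaving 1 lower. Calls higher with R848 numbered 2 with no minimum (Il10 in macrophage-like cells added), with clusters (Il1rn in cDC2-like cells) and with stricter gates (Il1b in macrophage-like cells). Looser gates gave 4 higher with CpG, adding Il1rn in mature DC-like and Il18 in macrophage-like cells. Il6 with R848 was also called lower in mature cells with stricter gates, a marker sum of at least 120 (-1.05) or cDC2 markers alone (-2.0), and it lay past the limit in cells with a sum under 120 (-1.37) and with cDC1 markers alone (-1.48). Median-of-ratios scaling moved the median of all genes from -0.05 to 0.11 in R848 mature DC-like cells and from 0.17 to 0.01 in R848 and CpG resting cDC2-like cells, and changed no call of a member. Thinning lowered 79 of 84 shares of cells. No paired analysis was possible because each group is 1 library. Il10 and Tnf outside the mature class rest on few UMIs, and their depth limits any comparison.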
